A study of Mus musculus with 2 samples.

Results

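The genes described here are 40 genes of DNA break signalling and repair, taken by symbol from a list that covers the proteins that find a break, the chromatin around it and the routes that mend it. All 40 were among the 32285 genes listed in the deposited single-cell matrices, and each had at least 200 unique molecular identifiers (UMIs, 1 per captured mRNA molecule) over both libraries. They were measured in thymic epithelial cells (TECs) sorted as EpCAM+ CD45- TER119- cells from the thymus of female C57BL/6 mice, 9 weeks old at analysis. The control library came from unirradiated mice and the irradiated library from mice taken 15 days after a sublethal dose of γ-rays, with 3 mice pooled in each, so that each condition was 1 library and no test between conditions was possible. The library called control here (4937 barcodes, 3233 cells kept) carries the deposit's irradiated label, and the library called irradiated here (7167 barcodes, 5070 cells kept) carries its control label. The assignment used here follows the matrix names and the study's own cell numbers, and under the deposit's labels every direction between libraries given here reverses.

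Levels are UMIs of a gene per 1000000 UMIs summed over the cells of a group, written CPM, so they are shares of the captured mRNA. Intervals are exact 95% counting intervals and cover counting error only, not differences between mice. They take each UMI as independent, so they are too narrow for a gene whose UMIs are clumped in few cells. The kept cells held 51586327 UMIs in the control library (median 13412 per cell) and 75542631 in the irradiated library (median 13003.5). The 40 genes together were at 996 and 1060 CPM, respectively. Of the barcodes, 17 occurred in both libraries, 5 of them among kept cells. Cells were grouped into 13 clusters, C0 to C12, without using the 40 genes, and 4 clusters with a proliferation score over 3 times the median were called dividing. These were C3 and C5, both with markers of transit-amplifying medullary TECs (TA-mTEC-like), plus C10 and C12. The transit-amplifying markers summed to 12.5 UMIs per 10000 in C3 and 56.9 in C5. Markers of Ccl21a+ medullary TECs summed to 93.2 in C3 and 31.4 in C5. C10 carried thymocyte RNA together with markers of cortical TECs (405 UMIs per 10000). In C10, 50% of control and 60% of irradiated cells were called G1 phase from cell cycle genes, as were 50.4% and 47.3% in C3. C12 was a cluster of 21 cells led by genes of motile cilia. The 4 dividing clusters held 480 control and 1208 irradiated cells, against 2753 and 3862 cells in the 9 resting clusters. Epcam was detected in all 13 clusters. The thymocyte markers summed to 3.32 and 3.59 UMIs per 10000 in dividing cells and 0.490 and 0.455 in resting cells of the control and irradiated library.

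A double-strand break is bound by the MRE11-RAD50-NBN complex, which activates the kinase ATM, while ATR with its partner ATRIP answers stretches of single-stranded DNA. The kinases phosphorylate the histone variant H2AX, and MDC1, RNF8, RNF168 and 53BP1 gather on the marked chromatin. Ends are then either rejoined directly by the Ku and DNA ligase IV machinery at any stage of the cell cycle, or repaired from the sister chromatid by homologous recombination, which needs a replicated genome and therefore acts in S and G2 phase.

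**Figure D1:**
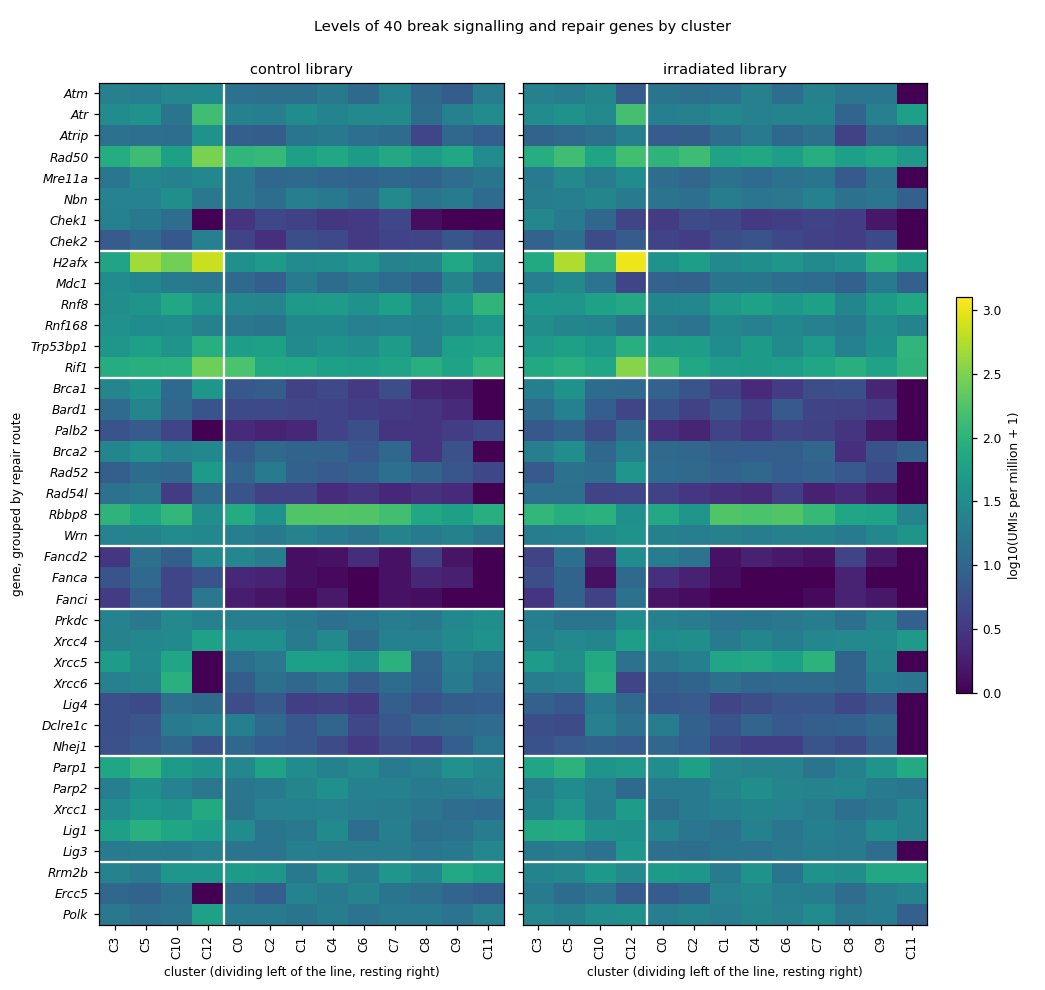
Level of each of the 40 genes (rows, grouped by repair route, with white lines between routes) in each of the 13 clusters (columns), with 1 panel for each library. Colour is log10 of CPM plus 1, and the 4 dividing clusters C3, C5, C10 and C12 stand left of the vertical white line. With both libraries summed, Brca1, Bard1, Fanca and Fanci were higher in C3 and C5 than in any resting cluster.

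In dividing cells, 15 of the 40 genes (37.5%) were at least 2-fold higher than in resting cells of the control library, with an interval that excluded equality, and 14 (35%) were so in the irradiated library. Over the 18788 genes with at least 50 UMIs the same rule marked 4.92% of genes as higher in the control and 4.44% in the irradiated library. The 14 genes Bard1, Brca1, Brca2, Chek1, Chek2, Fanca, Fanci, H2afx, Lig1, Mdc1, Palb2, Parp1, Rad54l and Xrcc6 passed in both libraries, and Xrcc1 passed in the control library. No member was at least 2-fold lower in dividing cells in either library, where 30.5% and 28.6% of all genes were. The median log2 ratio of dividing to resting cells over the 40 genes was 0.46 in the control and 0.40 in the irradiated library, beside -0.35 and -0.29 over all genes. These contrasts describe cells grouped by other proliferation genes and are given without a test. Counted as UMIs per cell in place of CPM, the ratio of every gene moved up alike, by 0.66 in the control and 0.59 in the irradiated library. On that scale 24 and 20 members were at least 2-fold higher, where 17% and 13.2% of all genes were. Dividing cells had medians of 21368 and 18264.5 UMIs, against 12730 and 11739 in resting cells.

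Homologous recombination had 5 of 8 members at least 2-fold higher in dividing cells in both libraries, with a median log2 ratio of 1.80 in the control and 1.66 in the irradiated library. The Fanconi anaemia route had 2 of 3, with medians of 3.32 and 3.12. Single-strand break repair and ligases had 3 of 5 in the control and 2 of 5 in the irradiated library, with medians of 1.07 and 0.83. Break sensors and kinases had 2 of 8 (medians 0.62 and 0.56) and chromatin adaptors 2 of 6 (0.41 and 0.35). End joining had 1 of 7, with medians of 0.11 and 0.01, and the p53-inducible genes Rrm2b, Ercc5 and Polk had 0 of 3, with medians of -0.59 and -0.06. The order of the routes by median was the same in the 2 libraries, with the Fanconi route and recombination first and end joining and the p53-inducible genes last. The place of the Fanconi route rests on 3 genes, and its median is the ratio of Fanca.

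**Figure D2:**
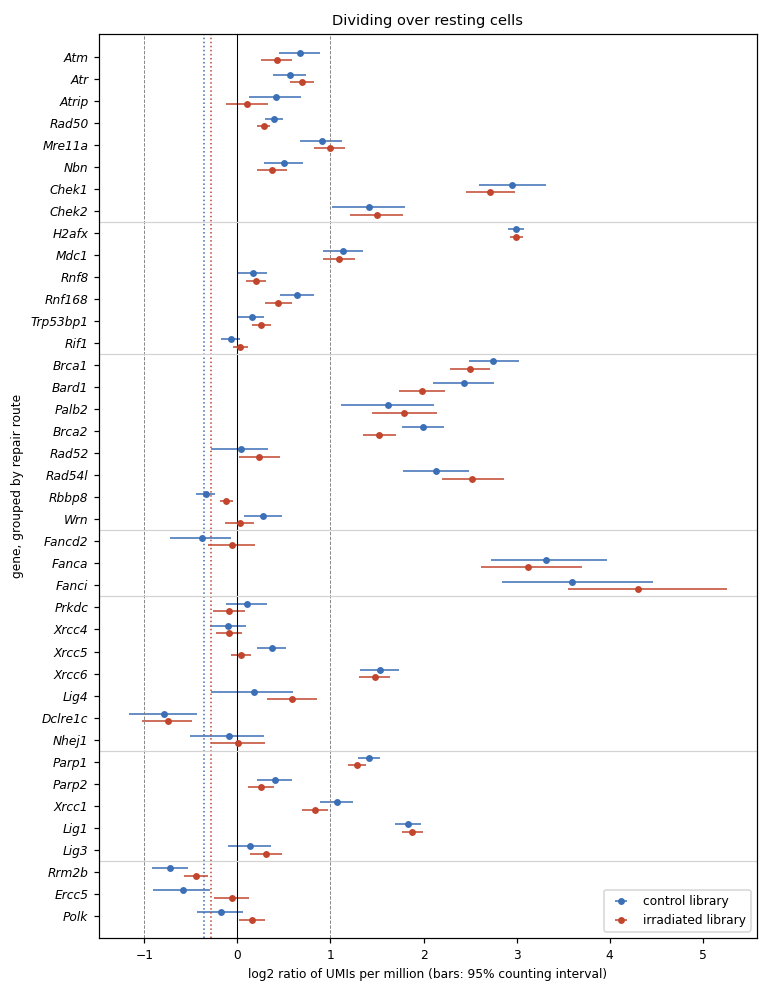
Log2 ratio of the level in dividing cells to that in resting cells for each gene, by route, in the control and the irradiated library, with 95% counting intervals as bars. Dashed lines mark a 2-fold difference and dotted lines the median of all genes in each library. The members of homologous recombination apart from Rad52, Wrn and Rbbp8 lie right of the 2-fold line, and most end joining genes lie near 0.

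Promoter sequence was read for the 31 members that matched the RefSeq promoter table (assembly GRCm38.p6, 250 bases before and 50 after the annotated start). Rad50, Nbn, H2afx, Rif1, Rbbp8, Wrn, Fancd2, Prkdc and Rrm2b did not match that table, so no window was read for them. The letters TTTNNCGC, with N any base, are a loose form of the core motif bound by E2F factors, which drive S-phase genes. They were searched on both strands. They occurred in 7 of the 31 members (22.6%) and in 5.93% of the 27025 genes of the table. Of the 14 members with a window that were at least 2-fold higher in dividing cells in either library, 6 held the letters (Bard1, Brca2, Chek2, Lig1, Mdc1 and Xrcc6), and of the 17 other members 1 did (Ercc5). The letters CCAAT occurred in 15 of 31 members (48.4%) beside 41.1% of genes. The letters TTTGAA, part of the element named CHR that is common in G2/M genes, occurred in 3 of 31 (9.68%) beside 20.2% of genes. A match describes the letters in the window and is not a measured binding site.

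The matched stretches lying before the start are shown because these members either were higher in dividing cells together or, for Ercc5, held a match to this loose pattern without being so. Capitals mark the match, which reads as its reverse complement where it begins with GCG. The stretch of Bard1 lies at chr1:71103144-71103211 (minus strand), Brca2 at chr5:150522423-150522490, Chek2 at chr5:110839801-110839868, Mdc1 at chr17:35841452-35841497, Xrcc6 at chr15:82016184-82016360 and Ercc5 at chr1:44147537-44147604 (all plus strand).
Bard1: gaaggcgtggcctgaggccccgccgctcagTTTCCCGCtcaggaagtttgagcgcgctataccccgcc
Brca2: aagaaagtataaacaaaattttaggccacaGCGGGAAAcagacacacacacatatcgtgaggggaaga
Chek2: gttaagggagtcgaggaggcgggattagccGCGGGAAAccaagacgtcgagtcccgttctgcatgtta
Mdc1: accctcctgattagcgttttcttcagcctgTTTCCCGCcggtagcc
Xrcc6: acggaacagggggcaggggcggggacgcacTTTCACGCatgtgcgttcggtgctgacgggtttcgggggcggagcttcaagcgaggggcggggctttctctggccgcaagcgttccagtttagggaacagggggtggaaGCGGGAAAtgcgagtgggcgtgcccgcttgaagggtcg
Ercc5: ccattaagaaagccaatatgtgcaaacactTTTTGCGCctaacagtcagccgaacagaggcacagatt

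Among the break sensors and kinases, Chek1, which encodes the kinase that ATR activates to hold cells back from mitosis, stood furthest apart. Its level in dividing cells was 18.1 CPM in the control and 20.3 in the irradiated library. In resting cells it was 2.35 and 3.09. The log2 ratio was 2.95 (95% interval 2.59 to 3.32) in the control and 2.72 (2.46 to 2.99) in the irradiated library. Chek2, the corresponding kinase downstream of ATM, was at 8.80 against 3.31 in the control and 9.95 against 3.52 in the irradiated library. The apical kinases differed less between the classes. Atr was at 34.1 against 23.2 and 35.6 against 22.1 (log2 ratios 0.56 and 0.69), and Atm at 21.4 against 13.4 and 20.4 against 15.2 (0.67 and 0.43). Of the 3 genes of the MRN complex, the nuclease gene Mre11a lay just under 2-fold in both libraries, at log2 ratios of 0.90 and 0.99. Rad50 was at 111 against 84.0 and 110 against 90.3 (0.40 and 0.28). Nbn had ratios of 0.50 and 0.37. Atrip, the partner of ATR, had the lowest log2 ratio of the route in the irradiated library at 0.10 (-0.12 to 0.33), with 0.41 (0.13 to 0.68) in the control library.

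H2afx, the gene for the histone variant H2AX, had the highest ratio of the chromatin adaptors. Its level was 295 CPM (285 to 305) in dividing and 37.1 (35.3 to 39.0) in resting control cells, and 320 in dividing and 40.2 in resting irradiated cells. The log2 ratio was 2.99 (2.90 to 3.08) in the control and 3.0 (2.93 to 3.07) in the irradiated library. Mdc1, which binds phosphorylated H2AX, was at 26.2 against 12.0 in the control and 23.3 against 10.9 in the irradiated library, just over 2-fold in both. The ubiquitin ligase genes Rnf168 (log2 ratios 0.65 and 0.44) and Rnf8 (0.17 and 0.20) and the adaptor gene Trp53bp1 (0.15 and 0.26) lay below 2-fold in both libraries. Rif1, whose product acts with 53BP1 to limit resection, was at 89.4 in dividing and 94.1 in resting control cells and at 83.8 and 81.8 in irradiated cells, so that both intervals of its ratio included equality (-0.18 to 0.03 and -0.04 to 0.11). Of the 6 chromatin adaptors, H2afx and Mdc1 were thus above 2-fold and the other 4 below it.

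In homologous recombination, the genes of the BRCA1-BARD1-PALB2-BRCA2 assembly, which acts on resected ends, were higher in dividing cells as a group. Brca1 was at 29.8 CPM in dividing and 4.42 in resting control cells, and at 27.7 and 4.90 in irradiated cells. Its log2 ratio was 2.75 (2.49 to 3.02) in the control and 2.50 (2.29 to 2.71) in the irradiated library. Bard1 had ratios of 2.43 and 1.98, Brca2 of 1.99 and 1.52, and Palb2 of 1.62 and 1.79. Rad54l, which encodes a DNA-dependent motor protein of the same route, was at 13.5 against 3.07 in the control and 11.6 against 2.02 in the irradiated library. Its log2 ratio was 2.14 (1.78 to 2.49) and 2.52 (2.20 to 2.86). The other 3 members did not share this pattern. Rad52 (0.03 and 0.24) and the helicase gene Wrn (0.28 and 0.02) lay near equality. Rbbp8, which encodes the resection factor CtIP, was lower in dividing cells, at 85.3 against 108 in the control and 95.8 against 104 in the irradiated library, with log2 ratios of -0.34 (-0.44 to -0.24) and -0.12 (-0.19 to -0.05). With the upward move common to all genes, the ratios as UMIs per cell were 0.32 and 0.47 for Rbbp8.

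The Fanconi anaemia proteins repair crosslinks between strands, with FANCI and FANCD2 forming a clamp that the core complex, which includes FANCA, marks with ubiquitin. Fanci was at 5.48 CPM in dividing and 0.445 in resting control cells, and at 5.55 and 0.272 in irradiated cells. These were few molecules, 18 and 14 UMIs in resting cells, and the log2 ratios of 3.59 (2.84 to 4.47) and 4.30 (3.55 to 5.26) were wide. Fanca was at 7.73 against 0.766 and 6.34 against 0.720. Fancd2 was not higher in dividing cells. Its level was 8.53 in dividing and 11.1 in resting control cells, and 8.0 and 8.32 in irradiated cells. The log2 ratio was -0.38 (-0.72 to -0.06) in the control and -0.06 (-0.31 to 0.19) in the irradiated library, and 0.28 and 0.53 as UMIs per cell, with the move common to all genes. These intervals are too narrow, since few resting cells held many of the Fancd2 UMIs. The gene for 1 part of the clamp, Fanci, was thus over 2-fold higher in dividing cells, and the gene for the other was not.

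In end joining, only Xrcc6, which encodes the Ku70 subunit, passed the 2-fold limit. It was at 30 CPM in dividing and 10.4 in resting control cells, and at 27.9 and 10.0 in irradiated cells (log2 ratios 1.53 and 1.48). Its level was highest in C10, at 90.9 and 90.2, where the thymocyte markers summed to 31.4 UMIs per 10000. Without C10 and C12 the log2 ratios were 1.17 and 1.02, a setting chosen after the data were seen. The part of thymocyte RNA in the level of Xrcc6 was not tested further. Xrcc5, for the partner subunit Ku80, was at 41.0 against 31.7 in the control library (0.37) and 43.7 against 42.7 in the irradiated library (0.04). Prkdc, Xrcc4 and Nhej1, for the kinase DNA-PKcs and the ligase partners XRCC4 and XLF, had ratios between -0.10 and 0.11 in both libraries. Lig4, for the ligase itself, had ratios of 0.18 and 0.59. Dclre1c, which encodes the nuclease Artemis, was lower in dividing cells, at 6.74 against 11.7 in the control and 6.30 against 10.6 in the irradiated library, with log2 ratios of -0.78 (-1.16 to -0.44) and -0.75 (-1.02 to -0.49). Its level in C10 was 17.3 and 21.3, and without C10 and C12 its ratios were -1.15 and -1.30, past the 2-fold limit. As UMIs per cell the ratios for Dclre1c were -0.13 and -0.16.

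Single-strand breaks are sensed by PARP1 and PARP2, bridged by XRCC1 and sealed by LIG3, while LIG1 seals the fragments made on the lagging strand. Lig1 had the highest ratio of this group. It was at 74.6 CPM in dividing and 20.9 in resting control cells and at 70.6 and 19.2 in irradiated cells, with log2 ratios of 1.84 (1.70 to 1.98) and 1.88 (1.76 to 1.99). Parp1 was at 87.5 against 32.9 and 80.0 against 32.8 (1.41 and 1.29). Xrcc1 was at 38.6 against 18.4 in the control library (1.07) and 31.7 against 17.8 in the irradiated library (0.83). Parp2 (0.40 and 0.25) and Lig3 (0.13 and 0.31) differed less.

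Of the p53-inducible genes, Rrm2b, for a ribonucleotide reductase subunit that supplies nucleotides outside S phase, was lower in dividing cells. It was at 22.9 against 37.8 CPM in the control and 27.3 against 37.1 in the irradiated library, with log2 ratios of -0.72 (-0.92 to -0.53) and -0.44 (-0.57 to -0.31). Ercc5, for the nuclease XPG of nucleotide excision repair, was at 9.25 against 14.0 in the control (-0.59, -0.91 to -0.29) and 14.3 against 14.8 in the irradiated library (-0.06, -0.25 to 0.13). Polk, for a DNA polymerase that copies past lesions, was at 15.1 against 17.1 (-0.18, -0.43 to 0.06) and 25 against 22.4 (0.16, 0.01 to 0.30). For all 3 the value in the irradiated library was the higher of the 2. As UMIs per cell the log2 ratios were -0.06 and 0.14 for Rrm2b, 0.07 and 0.53 for Ercc5, and 0.48 and 0.74 for Polk, and the change of sign for some of them is the upward move common to all genes.

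The 2 largest dividing clusters differed in their phase calls, made from a list of cell cycle genes that held no member. In C3, 48.4% of control and 51.2% of irradiated cells were called S phase and 50.4% and 47.3% G1, and in C5, 72.2% and 81.1% were called G2/M and 27.8% and 18.7% S phase. Between them, 13 of the 40 genes (32.5%) were higher in C5 in both libraries beyond counting error, where 12.2% of all genes were, 3 (7.5%) were lower, where 14.5% were, and 24 were neither. H2afx was at 462 and 541 CPM in C5 and 64.0 and 75.3 in C3 (log2 ratios 2.85 and 2.84 for control and irradiated). Thinned to 4000 UMIs per cell, 68.4% and 76.5% of C5 cells held an H2afx UMI, against 17.2% and 21.1% in C3 and 10.8% and 9.59% in the resting Ccl21a+ mTEC-like cluster C1. Without thinning the shares were 94.7% and 96.5% in C5, 47.2% and 51.7% in C3 and 26.0% and 23.8% in C1, whose median depths over both libraries were 25084.5, 14433 and 9675 UMIs. H2afx was the member with the largest difference between these 2 clusters in either library.

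Fancd2 and Fanci followed H2afx. Fancd2 was at 13.0 and 12.7 CPM in C5 and 2.12 and 3.33 in C3 (2.55 and 1.91), and Fanci at 7.76 and 8.70 against 2.59 and 2.04 (1.54 and 2.06). Within the dividing cells the genes for both parts of the clamp thus had the higher level in C5. The other genes higher in C5 were Bard1 (1.15 and 0.91), Fanca, Mre11a, Parp1, Parp2, Rad50, Brca1, Xrcc1, Brca2 and Trp53bp1, with ratios from 0.29 to 0.95. The 3 genes higher in C3 were Xrcc5 (-0.82 and -0.60), Rbbp8 (-0.59 and -0.43) and Prkdc (-0.45 and -0.51). Chek1 was at 22.1 and 26.1 in C3 and 17 and 18.6 in C5, and its interval excluded equality in the irradiated library alone (-0.76 to -0.22; control -0.81 to 0.04). Lig1 was higher in C5 in the control library (0.74) and near equal in the irradiated library (0.09, -0.05 to 0.24).

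Fancd2 was spread over few cells. The gene, at chr6:113531682-113597017 (GRCm38, plus strand), had its highest levels among the larger clusters in C0 and C2, both resting clusters with high Aire (7.71 and 13.2 UMIs per 10000), of which C2 is Aire+ mTEC-like. In C0 it was at 26.3 CPM in the control and 19.3 in the irradiated library, and in C2 at 19.0 and 14.0. In C1 it was at 0.325 and 0.421. The level in the Aire-high clusters came from few cells with many molecules each. In C0, 9.39% of control and 9.38% of irradiated cells held a Fancd2 UMI, with 4.76 and 3.04 UMIs per such cell and at most 42 and 18. In C2, 8.33% and 5.35% of cells did, with 5.17 and 4.94 UMIs per such cell and at most 21 and 22. In C5 the pattern was the opposite. There 28.9% and 24.5% of cells held Fancd2, with 1.33 and 1.27 UMIs per such cell and at most 4 and 3. The share in C1, at a lower depth, was 0.348% and 0.430%, with no cell over 1 UMI.

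Cells with 5 or more Fancd2 UMIs numbered 17 control and 16 irradiated cells in C0 and held 76.9% and 53.2% of the gene's UMIs there. In C2 they numbered 13 and 11 and held 80.7% and 81.0%. No cell of C5 reached 5. The pattern was present in both libraries. The median over the 40 genes was 1.42 UMIs per cell with a UMI in C0, 1.39 in C2 and 1.5 in C5, and in both C0 and C2 Fancd2 had the highest value of the 40 over both libraries, 3.75 and 5.05. Of the 30 control and 27 irradiated cells of C0 and C2 with 5 or more Fancd2 UMIs, all held an Aire UMI, as did 90.8% and 93.9% of cells of these clusters without Fancd2. The cells with 5 or more had median depths of 20238 and 19800 UMIs, against 18202.5 and 15703.5 in those without Fancd2. The shares given here are without thinning. An Mki67 UMI, a mark of cycling cells, was found in 7 of the 30 (23.3%, 9.93 to 42.3%) and 3 of the 27 (11.1%, 2.35 to 29.2%), against 14.2% and 13.0% of cells without Fancd2. In C5, 53 of 54 and 118 of 118 Fancd2-positive cells held one, as did 128 of 133 and 358 of 363 cells without Fancd2. Fanci, for the clamp partner, was found in 1 of the 30 (3.33%, 0.08 to 17.2%) and 1 of the 27 (3.70%, 0.09 to 19.0%). Among cells of C0 and C2 without Fancd2, 0.676% of control and 0.519% of irradiated cells held Fanci. Fancd2os, which overlaps Fancd2 on the other strand, had 4 and 13 UMIs in all, against 546 and 621 for Fancd2.

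**Figure D3:**
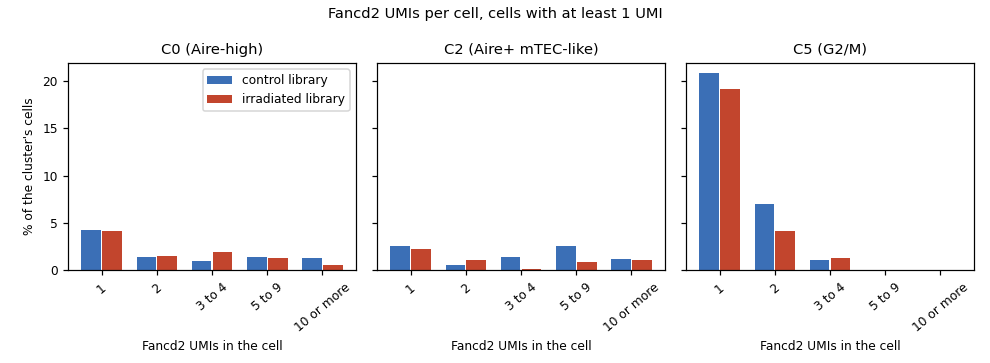
Share of the cells of C0, C2 (both Aire-high and resting) and C5 (G2/M) that held 1, 2, 3 to 4, 5 to 9, or 10 or more Fancd2 UMIs, in each library. In C5 the bars end at 3 to 4 UMIs, whereas in C0 and C2 the shares at 5 to 9 and at 10 or more lie between 0.565% and 2.59%.

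Several members under 2-fold between dividing and resting cells differed among the resting clusters. Rif1 was at 166 and 139 CPM in C0 and between 48.4 and 87.7 in C1, C2, C4, C6, C7, C8 and C9. In C0 it averaged 3.62 UMIs per cell with a UMI, and 236 cells with 5 or more held 60.6% of its UMIs there. Dclre1c was also highest in C0 among the 10 clusters that held 100 or more cells per library, at 21.0 and 19.7, against 4.71 and 4.51 in C3. The Aire-high cluster C0 thus carried the highest level of Rif1, Dclre1c and Fancd2 among these 10 clusters. Rad50 was at 107 and 104 in C0 and 118 and 136 in C2, and at 48.1 and 54.1 in C6, whose leading genes are stress response genes.

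Xrcc5 and Rbbp8 had the reverse pattern. Xrcc5 was at 95.2 and 101 CPM in the cortical cluster C7 (cTEC-like), 55.2 and 67.4 in C1 and 54.9 and 73.6 in C4, but at 13.1 and 16.2 in C0 and 9.28 and 8.97 in C8 (late- or post-Aire mTEC-like). Rbbp8 was at 182 and 181 in C1, 184 and 164 in C4 and 180 and 179 in C6, against 38.2 and 40.5 in C2. The other Ku gene, Xrcc6, stayed between 7.04 and 19.9 in the 8 resting clusters of this size, a narrower range than that of Xrcc5. With both libraries summed, Xrcc6 was lowest in C0 among clusters of at least 100 cells. Rrm2b was highest in the tuft-like cluster C9, at 72.7 and 71.6, followed by C0 (47.4 and 48.2), and was at 16.7 and 18 in C1. H2afx was likewise highest in C9 among these resting clusters, at 70.1 and 93.7, where the others lay between 23.2 and 52.1. C9 held 151 control and 148 irradiated cells.

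Between the libraries the 40 genes differed little. In dividing cells, 3 members (7.5%) were at least 1.5-fold higher in the irradiated than in the control library with an interval that excluded equality, where 3.12% of all genes were, and no member was as much lower, where 3.0% of all genes were. In resting cells no member was higher, where 2.54% of all genes were, and 1 (2.5%) was lower, where 8.18% were. The median log2 ratio of irradiated to control over the 40 genes was -0.06 in dividing and -0.03 in resting cells. Over all genes it was -0.003 and -0.05. As UMIs per cell these medians of all genes moved by -0.22 and -0.14, and in dividing cells 0 members were then higher and 1, Atrip, was lower. These directions rest on the library assignment given above and reverse under the deposit's labels, and with 1 library per condition an effect of irradiation cannot be told apart from a difference between the pools of mice.

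Polk, Ercc5 and Rrm2b, the 3 p53-inducible members, had the highest ratios of irradiated to control in dividing cells among the 32 members with at least 100 UMIs there in each library. Among members under that limit, Lig4 (log2 ratio 0.60) and Palb2 (0.36, -0.05 to 0.80, from 64 and 179 UMIs) were also above Rrm2b (0.25). The p53-inducible label here covers Polk, Ercc5 and Rrm2b only. Whether p53-inducible genes as a set differed between the libraries was not tested. Outside the members, Ddb2 and Xpc of excision repair had ratios of -0.008 (-0.32 to 0.31) and -0.20 (-0.47 to 0.08) in dividing cells. In resting cells their ratios were 0.02 (-0.14 to 0.18) and -0.14 (-0.27 to 0.001). Polk, at chr13:96480690-96542579 (GRCm38, minus strand), was at 15.1 CPM in control and 25 in irradiated dividing cells, a log2 ratio of 0.72 (0.48 to 0.98). In resting cells it was at 17.1 and 22.4 (0.39, 0.25 to 0.53), and it was higher in the irradiated library in 9 of these 10 larger clusters. The clusters furthest apart were C5 (12.8 and 21.9), C7 (18 and 30.6) and C3 (16.2 and 26.5), and C8 was the exception (17.7 and 16.6). Thinned to 4000 UMIs per cell, a Polk UMI was found in 6.67% (4.60 to 9.28%) of control and 8.78% (7.25 to 10.5%) of irradiated dividing cells, and the intervals of these shares overlapped. The log2 ratio in dividing cells stayed above 0 in all 16 alternative settings, between 0.51 and 0.78, but some of these settings could not move it. It was under the 1.5-fold limit with classes taken from phase calls (0.55) and as UMIs per cell (0.51).

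Ercc5, at chr1:44147744-44181260 (plus strand), was at 9.25 CPM in control and 14.3 in irradiated dividing cells, a log2 ratio of 0.62 (0.30 to 0.96). It was at 9.42 and 18.1 in C3 (0.93, 0.44 to 1.48) and at 8.66 and 11.4 in C5 (0.39, -0.09 to 0.90), in the same direction, and the difference between these ratios was not tested. In resting cells it was at 14.0 and 14.8, and the clusters did not share a direction. C0 was lower in the irradiated library (10.5 and 7.04), whereas the tuft-like cluster C9 was higher on few molecules (21 and 34 UMIs). The 1.5-fold call of Ercc5 was lost with under 10% mitochondrial UMIs (0.55) and as UMIs per cell (0.40). Rrm2b, at chr15:37923952-37961318 (minus strand), was at 22.9 and 27.3 in dividing cells (0.25, 0.04 to 0.47), at 18.2 and 26.1 in C5 and 23.1 and 24.0 in C3. In resting cells it was at 37.8 and 37.1. As UMIs per cell the ratio of Rrm2b in dividing cells was 0.03.

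**Figure D4:**
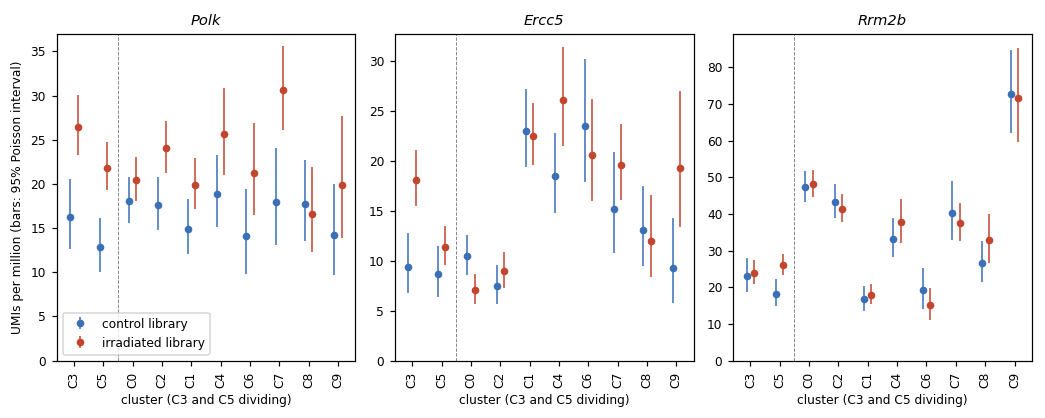
Level of Polk, Ercc5 and Rrm2b in CPM, with 95% counting intervals, in the control and irradiated library, for the dividing clusters C3 and C5 and then the 8 larger resting clusters. Polk is higher in the irradiated library in every cluster shown but C8, while Ercc5 and Rrm2b do not keep a direction, and all directions reverse under the deposit's labels.

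Lig4 was the other member past 1.5-fold in dividing cells, at 5.30 CPM (59 UMIs) in the control and 8.08 (195 UMIs) in the irradiated library, a log2 ratio of 0.60 (0.18 to 1.05). Its level in C10 was 13.0 and 17.2. C10, the cluster with thymocyte RNA, made up 1.11% of control and 2.17% of irradiated cells. Within C3 it was at 4.71 and 7.83 and within C5 at 3.97 and 6.16, and without C10 and C12 the ratio was 0.67. The call was lost in 7 of the 16 alternatives, with ratios down to 0.38. Some of the others could not move this ratio. The lowest ratios in dividing cells were those of Atrip at 13.4 and 10.2 (-0.39, -0.69 to -0.09), Brca2 at 30.4 and 24.8 (-0.29, -0.49 to -0.10) and Xrcc1 at 38.6 and 31.7 (-0.29, -0.46 to -0.11). None of them reached 1.5-fold, and Brca2 was at 0.12 when cells with 6000 or more genes were left out.

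**Figure D5:**
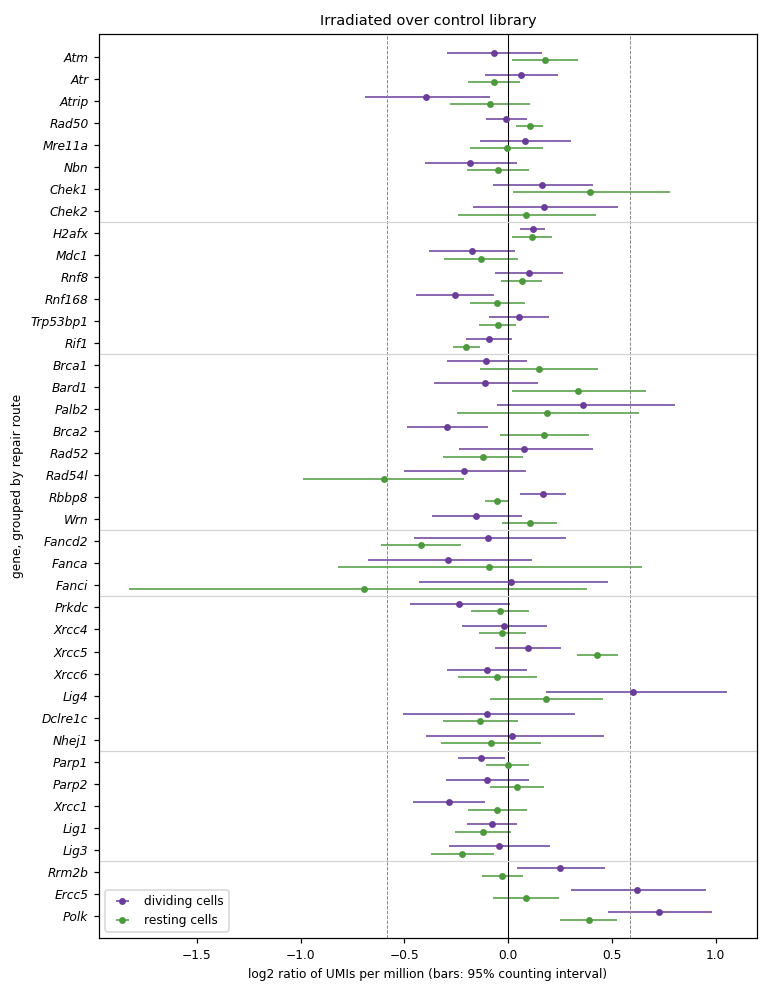
Log2 ratio of the level in the irradiated library to that in the control library for each of the 40 genes, by route, in dividing and in resting cells, with 95% counting intervals. Dashed lines mark a 1.5-fold difference, and the ratio at the line or past it is highest for Polk, Ercc5 and Lig4 in dividing cells and lowest for Fanci, with few UMIs, and Rad54l in resting cells. All directions reverse under the deposit's labels.

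In resting cells, the highest ratios among the 36 members with at least 100 UMIs in each library were those of Xrcc5, Polk and Bard1. Xrcc5 was at 31.7 in control and 42.7 in irradiated cells (0.43, 0.33 to 0.53). By the estimate alone it was higher in 8 of the 10 larger clusters, which include the dividing C3 and C5. Its largest differences with an interval above 0 were in C6 (38.3 and 55.1, 0.52) and C4 (54.9 and 73.6, 0.42). C7, where Xrcc5 was highest, made up 4.64% of control and 7.02% of irradiated cells. With each resting cluster weighted the same in both libraries its ratio was 0.28, against 0.43. Bard1 was at 3.26 and 4.12 (0.34, 0.02 to 0.66).

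The lowest ratios in resting cells were those of Rad54l, Fancd2 and Lig3. Rad54l was at 3.07 and 2.02 (-0.60, -0.99 to -0.21), the only member at least 1.5-fold lower. By the estimate alone it was lower in 9 of the 10 larger clusters, which include the dividing C3 and C5. The ratio in resting cells rested on 124 and 104 UMIs. The call was lost in 6 of the 16 alternatives, including cells with under 6000 genes (-0.29). Some of the others could not move this ratio. Lrrc41 overlaps Rad54l on the other strand and had 1902 and 2911 UMIs, against 274 and 385 for Rad54l. Fancd2 was at 11.1 and 8.32 (-0.42, -0.62 to -0.23). That interval is too narrow, since few cells held most Fancd2 UMIs in C0 and C2. In C0, where the ratio was -0.45, a UMI was found in nearly the same share of cells in both libraries (9.39% and 9.38%), and the number of UMIs per such cell was lower (4.76 and 3.04). Lig3 was at 16.8 and 14.4 (-0.22, -0.37 to -0.07). Rif1, at 94.1 and 81.8, had a ratio of -0.20 (-0.26 to -0.14).

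H2afx had ratios of 0.12 in dividing and 0.11 in resting cells, and within C5 it was at 462 and 541 CPM (0.23, 0.16 to 0.29). In dividing cells its ratio ranged from -0.10 as UMIs per cell to 0.65 with under 6000 genes, where H2afx passed the 1.5-fold limit. In C10 it was at 275 and 117 (-1.24, -1.47 to -1.01), from 36 control and 110 irradiated cells. Lig1 differed in opposite directions in C3 (55.1 and 72.4, 0.39) and C5 (92.2 and 77.3, -0.25), and its ratio over all dividing cells was -0.08. The difference between these 2 ratios was not tested.

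A further 80 repair genes outside the 40 were counted in the same way, all with at least 50 UMIs. In dividing cells 32 of them (40%) in the control and 31 (38.8%) in the irradiated library were at least 2-fold higher than in resting cells, and none was 2-fold lower. Their median log2 ratios were 0.57 and 0.53. Other recombination genes led with 14 and 13 of 22, from Eme1 at 4.94 and 4.22 down to Rad51c at -0.22 in the control and Rad51d at -0.22 in the irradiated library. Other Fanconi genes had 5 and 4 of 10, with Ube2t highest at 3.56 and 3.22. Their medians of 0.84 and 0.51 were below those of the other recombination genes and of the 3 Fanconi members. Checkpoint genes had 5 of 11 in both, with Timeless highest at 2.75 and 2.57. Excision repair had 4 and 6 of 21, with Neil3 highest at 4.60 and 4.57, and mismatch repair had 2 and 1 of 7, led by Msh6 at 1.33 in the control and Pms1 at 1.15 in the irradiated library. Other end joining genes had 2 of 9 in both. The highest of these was Dntt, a thymocyte gene and a marker of the thymocyte list, at 3.01 and 3.81. By median log2 ratio, the other recombination genes were highest of the 6 lists (1.60 and 1.44) and the other end joining genes lowest (0.28 and 0.24).

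The lowest of the other lists were Fancc at -0.76 and Fan1 at -0.05 in the Fanconi list, Atmin at -0.41 and -0.04 among checkpoint genes, Xpc at -0.43 and Xpa at -0.53 in excision repair, Mlh3 at -0.22 and -0.12 in mismatch repair, and Paxx at -0.55 and -0.32 in end joining, for the control and irradiated library. Between the libraries, 2 of the 80 (2.5%) were past 1.5-fold higher in irradiated dividing cells, where 3.12% of all genes were. These were Pms1 (0.71, 0.17 to 1.32) and Fancc (0.61, 0.04 to 1.24), from 34 and 32 UMIs in the control library. In resting cells Dna2 was higher (1.13, 0.73 to 1.56) and Dntt lower (-0.96, -1.27 to -0.65). Each was 1.25% of the 80, where 2.54% of all genes were higher and 8.18% lower.

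The counts do not resolve every overlap between genes. Of the 40 genes, 25 overlap another annotated gene in GENCODE vM21 (GRCm38), 20 on the opposite strand and 9 on the same strand, and whether counting used the strand is not given in the sources used here. The genes concerned include Fanci with Polg (1252 and 1702 UMIs, against 79 and 148 for Fanci), Fanca with Zfp276 (400 and 507, against 117 and 190) and Xrcc6 with Desi1 (1751 and 2532, against 755 and 1190). Atrip shares its strand with Trex1, which was listed with 0 UMIs in both libraries.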

How the data were processed

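The data were 2 10x Genomics 3' single-cell libraries of sorted TECs, made from pooled mice. The authors' deposited matrices hold raw UMI counts per gene and barcode from Cell Ranger (version 5.0.1 in the file headers and 5.1 in the submitters' processing notes). The labels name v2 chemistry and mice of 4 weeks in the extraction text, whereas the study's methods name a later chemistry. Cells with more than 2000 and fewer than 7500 genes and under 15% mitochondrial UMIs were kept, with no doublet caller beyond this upper limit. They were clustered with Seurat 5.3.0 in R 4.3.3 (3000 variable genes, 2000 anchor genes without the 40 members, 20 components, resolution 0.5), with the mTEC, cTEC and tuft-like names taken from marker lists.

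Counts were summed per class or cluster and library with scipy 1.17.1 and scanpy 1.11.5. Log2 ratios used 0.5 added UMIs, with exact conditional binomial intervals, Poisson intervals for levels and Clopper-Pearson intervals for shares, all at 95%. A gene was called at 2-fold (dividing over resting) or 1.5-fold (between libraries) with an interval excluding equality. Named genes were the highest and lowest of each route, and the 3 highest and 3 lowest between libraries with at least 100 UMIs in each. Thinned shares left out 5 cells under 4000 UMIs. The ratio and the call rule were tested on simulated independent counts with known fold changes. That simulation did not cover clustering, classes, thinning or UMIs clumped in few cells. The members and gene lists were chosen with earlier results of these data known. No test was run, since each condition was 1 library, and intervals cover counting error only. In all 16 alternatives were tried, 1 of them (dividing cells without the thymocyte-RNA cluster and the cluster under 50 cells) chosen after seeing the data. Some could not move a given ratio. Limits on total UMIs changed only which genes were counted. Equal weights of resting clusters changed only the resting ratio between libraries, which the setting chosen later could not change. Leaving the thymocyte-RNA cluster out of resting cells changed nothing, since that cluster was in the dividing class.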

Additional observations from a re-analysis of the deposited data

How the results depend on the processing

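The count of members at least 2-fold higher in dividing cells lay between 13 and 16 in both libraries under every alternative but UMIs per cell, where it was 24 in the control and 20 in the irradiated library. No member was 2-fold lower, except 1 (Dclre1c) in the irradiated library with classes from phase calls, and 1 in each library without the thymocyte-RNA and small clusters, a setting chosen after seeing the data. The count of 3 members higher in irradiated dividing cells became 1 with under 10% mitochondrial UMIs (Polk). It was also 1 with classes from phase calls (Ercc5). As UMIs per cell the count was 0, and 1 member (Atrip) was lower. The count was 2 at resolution 0.3, at resolution 1.0, with libraries merged and with a lower minimum of detected genes. In each of these settings Lig4 was lost. With under 6000 genes the count was 4, with H2afx added. In resting cells the 1 member lower (Rad54l) became 0 with members kept among the clustering genes, at resolution 1.0, with libraries merged without integration, with under 6000 genes, as a mean over cells and with resting clusters weighted the same, and under 6000 genes 1 (Chek1) was higher. Fewer cells were kept with the stricter limits on genes and mitochondrial UMIs. For the other changes the cause was not tested. No alternative reversed a called direction. No paired analysis was possible because each condition was 1 library, and for the same reason no replicate could be left out. Members with under 100 UMIs in a group, such as Fanci, Fanca and Lig4, had the widest intervals among those named.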
